A study of Mus musculus with 6 samples.

Results

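The Fos and Jun genes encode the subunits of AP-1, and 6 of them were read here: Fos, Fosb, Fosl1, Jun, Junb and Jund. They were chosen by gene symbol in the platform annotation, which gave 1 probe for each gene, so 6 of the 25697 probes on the array and 6 of the 16593 genes with a symbol. Probes for 5 of the 6 genes were detected above background on all 6 arrays and were tested, among 11942 tested probes for 8253 genes. With the negative-selecting ligand MCC, Fos, Fosb and Junb rose and Jund fell against both other ligands. The Jun probe did not pass the test in any comparison, and Fosl1 was not detected on any array.

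The cells were thymocytes before selection, at the CD4 CD8 double-positive (DP) stage. All 3 groups had the genotype AND.Rag1-/-H-2d, which is a Rag1-deficient mouse with the AND T cell receptor and the H-2d haplotype. The cells were kept for 7 h on plates coated with dimers of the class II molecule I-Ek loaded with MCC (negative selection signals in the labels), gp250 (positive selection signals) or Hb (non-selecting signals), and each ligand had 2 arrays. There was no group without a ligand. Whether the 2 arrays of a ligand stand for separate mice or cultures is not in the labels. The p-values therefore reflect the spread between these samples alone, and that spread may be technical.

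AP-1 is a dimer of basic leucine zipper (bZIP) proteins. Jun proteins can pair with each other or with a Fos protein, whereas Fos proteins need a Jun partner to bind DNA. Fos, Fosb, Jun and Junb are known as immediate-early genes, which are transcribed soon after a receptor signal without new protein synthesis. In T cells AP-1 binds DNA together with NFAT at many genes that are switched on by the T cell receptor.

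The promoter sequences of Fos, Fosb and Junb are shown because these genes rose together. They are the 250 bases before each annotated start, read 5′ to 3′ on the strand of the gene, from RefSeq for the GRCm38.p6 build. They lie at chr12:85473640-85473889 on the plus strand (Fos), chr7:19310046-19310295 on the minus strand (Fosb) and chr8:84978749-84978998 on the minus strand (Junb). Capitals mark TGACG, the core of the cyclic AMP response element, and in Fosb also GCGNGGGCG, the site of EGR factors.
Fos: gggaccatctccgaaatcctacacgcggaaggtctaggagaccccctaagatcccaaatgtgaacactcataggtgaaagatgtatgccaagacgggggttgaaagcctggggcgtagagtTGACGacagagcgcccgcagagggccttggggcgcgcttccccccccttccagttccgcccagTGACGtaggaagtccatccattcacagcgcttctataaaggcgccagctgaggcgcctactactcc
Fosb: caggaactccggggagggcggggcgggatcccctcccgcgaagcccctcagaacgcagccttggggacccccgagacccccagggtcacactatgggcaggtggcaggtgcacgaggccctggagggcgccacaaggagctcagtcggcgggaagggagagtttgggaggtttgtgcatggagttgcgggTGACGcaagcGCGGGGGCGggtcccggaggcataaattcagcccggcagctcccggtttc
Junb: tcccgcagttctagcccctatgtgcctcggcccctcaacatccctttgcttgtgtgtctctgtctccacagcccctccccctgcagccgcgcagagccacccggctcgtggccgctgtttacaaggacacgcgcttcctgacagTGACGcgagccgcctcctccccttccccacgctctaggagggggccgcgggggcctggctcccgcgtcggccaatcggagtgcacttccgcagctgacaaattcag

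Promoter windows were matched for 5 of the 6 genes, 1 each, and none was matched for Fosl1. Each window was searched on both strands, over 250 bases before and 50 after the start, for TGANTCA (the AP-1 site), TGACGTCA (the full cyclic AMP response element), the CArG box bound by SRF, and GCGNGGGCG. These occur in 7.81%, 1.79%, 1.63% and 5.55% of the 32851 windows of the table. The shorter TGACG, which is contained in TGACGTCA, was added after the letters had been seen and occurs in 20.8% of all windows. TGACG was found in Fos at bases -129 to -125 and -66 to -62 from the start, in Fosb at -60 to -56 and in Junb at -106 to -102. Fosb also held GCGNGGGCG at -50 to -42. The windows of Jun and Jund held none of these motifs, and none of the 5 held TGANTCA, TGACGTCA or a CArG box. Sites farther from the start, or with other letters, could not be found by this search. The Jun window, for example, holds TGACATCA, which is close to TGACGTCA but was not counted. Absence of such sites from these genes was therefore not shown. G and C made up 58.4% of the 250 bases for Fos, 68.8% for Fosb, 66.4% for Junb, 61.2% for Jun and 47.6% for Jund. These are matches of letters in a window, not measured binding. Whether the annotated start used for each gene is its main start in thymocytes was not tested, and this bears most on the low value and lack of motifs for Jund.

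Every array gave a background-subtracted intensity in arbitrary units and a detection p-value for each probe. The mean intensity over all probes was 582 to 613 on the MCC arrays, 445 to 482 on the gp250 arrays and 470 to 488 on the Hb arrays, and between 10519 and 11603 probes were detected. Replicates correlated across the tested probes with r = 0.994 for each ligand, and precision is limited by having 2 arrays per ligand. Of 13 DP thymocyte markers, 10 were tested: all 10 were detected on each gp250 and Hb array and 7 on each MCC array, while the probe for Cd8a was not detected on any array. Against Hb, 8 of the 10 fell with MCC and 0 rose, against 28.8% lower and 26.2% higher over all 8253 genes tested. Their median log2 difference was -3.14, or -2.90 with the markers below background at their bound, and Cd4 was among these with MCC. The count of rises was 1 with an offset of 50 or a stricter detection filter, and 2 with median scaling, without scaling or with an intensity trend. Their summed intensity ran from 54405 to 55291 on MCC arrays, from 104406 to 104703 on gp250 arrays and from 102687 to 107522 on Hb arrays. Signal above background was also read for Rag1 on every array, and whether its probe covers the disrupted stretch is unknown here. In these bulk samples fewer cells of a type and less RNA per cell cannot be told apart.

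Fos, whose protein forms more stable dimers with Jun proteins than these form with each other, stood far higher with MCC than with the other ligands. The deposited intensity of its probe was 1583 and 1696 on the 2 MCC arrays, 161 and 163 with gp250, and 155 and 158 with Hb. Both MCC arrays lay well above the other 4, and both gp250 arrays were slightly above the Hb arrays before normalization. The means were 1639 ± 79.8 with MCC, 162 ± 1.39 with gp250 and 157 ± 1.97 with Hb (SD, n = 2 each). After normalization on the log2 scale, Fos rose by 2.97 ± 0.10 (SE) with MCC against Hb, which is 7.81-fold (95% interval 6.59 to 9.25; limma, adjusted p = 4.73e-06). The groups did not overlap. Among the 11942 tested probes this was the 102nd largest rise. Against gp250 the rise of Fos was 2.88 ± 0.10, or 7.36-fold (adjusted p = 5.07e-06). Between gp250 and Hb the log2 difference of Fos was 0.08 ± 0.10 (95% interval -0.16 to 0.33; adjusted p = 0.944), and on the normalized scale the groups overlapped.

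Fosb encodes a second Fos protein. Its deposited intensity was 402 and 394 with MCC, 45.0 and 61.1 with gp250, and 52.0 and 82.6 with Hb. Both MCC arrays lay above all others, and the arrays of gp250 and Hb overlapped. The means were 398 ± 5.29, 53.1 ± 11.4 and 67.3 ± 21.6 (SD, n = 2 each), so that the spread was widest with Hb. The gp250 and Hb arrays read Fosb just above background, with detection p-values between 0.00251 and 0.0251. Fosb rose with MCC against Hb by 2.12 ± 0.20 on the log2 scale, or 4.34-fold (95% interval 3.12 to 6.03; adjusted p = 0.000223), the 241st largest rise. Against gp250 it rose by 2.34 ± 0.20, or 5.06-fold (adjusted p = 0.000142). The gp250 minus Hb difference of Fosb was -0.22 ± 0.20 (95% interval -0.70 to 0.25; adjusted p = 0.914).

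Fosl1 encodes FRA-1, a Fos protein known as a late target of AP-1 itself. Its probe gave 9.12 and 5.35 with MCC, 3.09 and 6.19 with gp250, and 7.35 and -0.0065 with Hb. The arrays of all ligands overlapped near 0, with detection p-values of 0.237 to 0.419. Fosl1 therefore did not enter the test. Without the filter on dim probes its log2 difference between MCC and Hb was 0.07 ± 0.09 (adjusted p = 0.694). How well the Fosl1 probe, or the dim Jun probe, reads its transcript is not known here, so the values say nothing about absence of the transcript.

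Junb, a Jun protein that pairs with Fos proteins and activates transcription more weakly than JUN at single AP-1 sites, was bright on every array. Its deposited intensity was 1440 and 1512 with MCC, 400 and 395 with gp250, and 451 and 455 with Hb. The MCC arrays were above all others, and both gp250 arrays were below both Hb arrays. The means were 1476 ± 51.0 with MCC, 397 ± 3.81 with gp250 and 453 ± 2.79 with Hb (SD, n = 2 each). Junb rose with MCC against Hb by 1.37 ± 0.10 on the log2 scale, or 2.58-fold (95% interval 2.18 to 3.06; adjusted p = 8.66e-05), the 630th largest rise. Against gp250 Junb rose by 1.51 ± 0.10, or 2.84-fold (adjusted p = 5.79e-05). The lower Junb signal with gp250 than with Hb did not pass the test, with a log2 difference of -0.14 ± 0.10 (95% interval -0.39 to 0.11; adjusted p = 0.892).

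Jund, the Jun gene known for steady transcription in resting cells, ran the other way. Its probe gave 251 and 303 with MCC, 365 and 527 with gp250, and 526 and 585 with Hb. The MCC arrays were the lowest of the 6, while the higher gp250 array reached the lower Hb array. The means were 277 ± 36.2, 446 ± 114 and 555 ± 41.5 (SD, n = 2 each). Jund fell with MCC against Hb by 1.23 ± 0.17 on the log2 scale, which is 2.35-fold lower (95% interval 1.77 to 3.12; adjusted p = 0.00123), the 723rd largest fall. Against gp250 Jund fell by 0.95 ± 0.17 on the log2 scale, or 1.93-fold (adjusted p = 0.00372). The gp250 mean lay between the other ligands, but its log2 difference from Hb was -0.28 ± 0.17 (95% interval -0.69 to 0.13; adjusted p = 0.865).

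Jun encodes c-JUN, the Jun protein with the strongest activity as a homodimer. Its probe was dim but detected on all 6 arrays, with detection p-values of 0.00627 to 0.0188. The deposited intensity was 63.6 and 73.1 with MCC, 48.5 and 68.3 with gp250, and 72.6 and 48.7 with Hb. All 3 groups overlapped. The means were 68.3 ± 6.69, 58.4 ± 14.1 and 60.7 ± 16.9 (SD, n = 2 each). The log2 difference of Jun was -0.02 ± 0.18 between MCC and Hb (95% interval -0.45 to 0.40; adjusted p = 0.918) and -0.03 ± 0.18 between MCC and gp250 (-0.45 to 0.40; adjusted p = 0.912). Between gp250 and Hb it was 0.00 ± 0.18 (-0.42 to 0.43; adjusted p = 0.999). The intervals leave room for differences of up to about 0.4 on the log2 scale, so equal Jun levels were not shown.

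**Figure D1:**
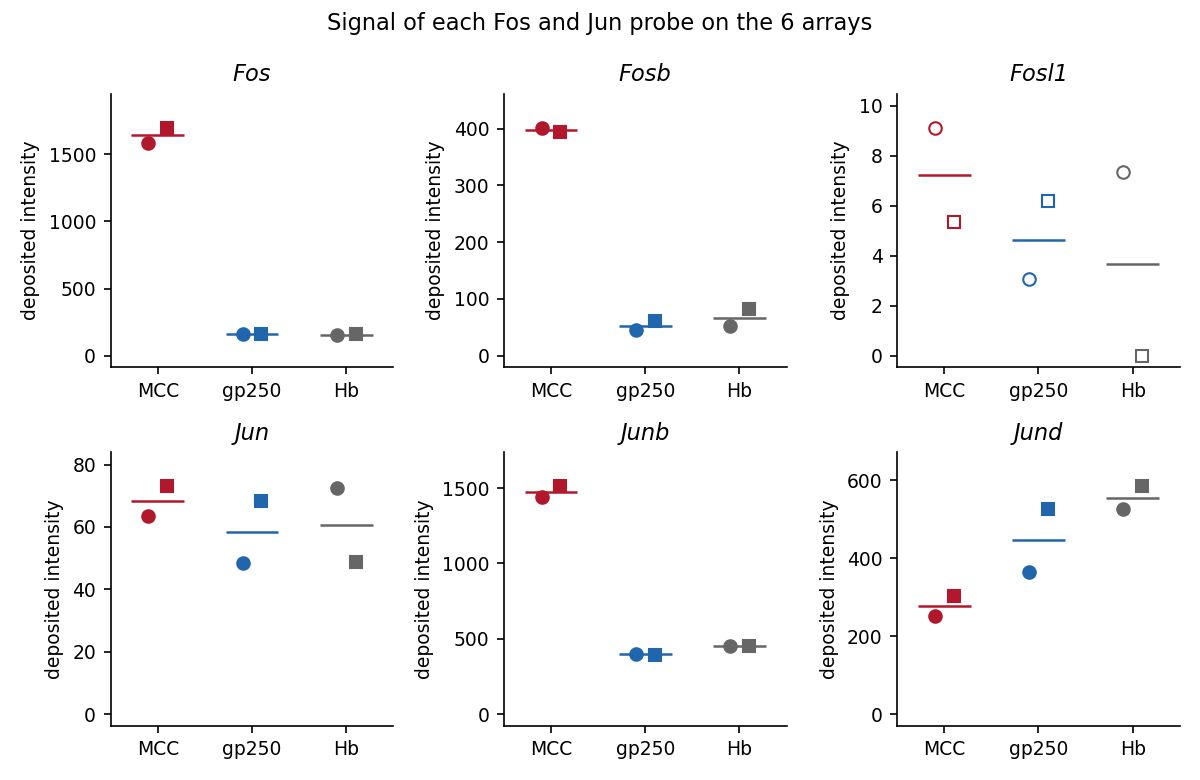
Deposited intensity (arbitrary units, linear axis from or just below 0) of the probe of each Fos and Jun gene on the 6 arrays, by ligand. Points are single arrays and bars are the means of 2 arrays. Fos, Fosb and Junb stand above the other ligands on both MCC arrays, Jund stands below them, Jun overlaps between all ligands and Fosl1 lies near 0.

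Of the 5 tested genes, 3 rose and 1 fell with MCC against Hb, and the same genes passed in the same directions with MCC against gp250. The background was wide: 54.8% of tested probes were called between MCC and Hb, 26.6% as higher and 28.2% as lower, and 55.8% between MCC and gp250, 27.1% as higher and 28.6% as lower. The median absolute log2 difference over all tested probes was 0.41 between MCC and Hb, and the called Fos and Jun genes each differed by more than that. That median includes probes that were not called, so called genes tend to exceed it. These comparisons share the MCC arrays, and the values above stand side by side, not as repeats. Ratios of the deposited means, with neither offset nor quantile step, were wider for the genes that rose: MCC over Hb was 10.5 for Fos, 5.91 for Fosb and 3.26 for Junb. For Jund the ratio of Hb to MCC was 2.01 on that scale, and for Jun the ratio of MCC to Hb was 1.13.

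Between gp250 and Hb, 0 of the 5 genes passed the test. Over all 11942 tested probes limma called 0, a share of 0%, with a smallest adjusted p of 0.716, while 782 had an unadjusted p under 0.05. None of the 5 genes was among those 782. The median 95% interval, not adjusted over probes, reached 0.28 to each side on the log2 scale. Smaller differences between gp250 and Hb could therefore be missed with 2 arrays each. Larger ones could be missed too: in the gene lists read below, differences of 0.72 and -0.62 were not called. On the normalized scale the groups did not overlap for Junb alone of the 5, with both gp250 arrays lower. With 2 arrays each, such a separation can arise without any difference between the ligands. Its share over all tested probes was not counted, so no effect of gp250 on Junb is read from it.

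**Figure D2:**
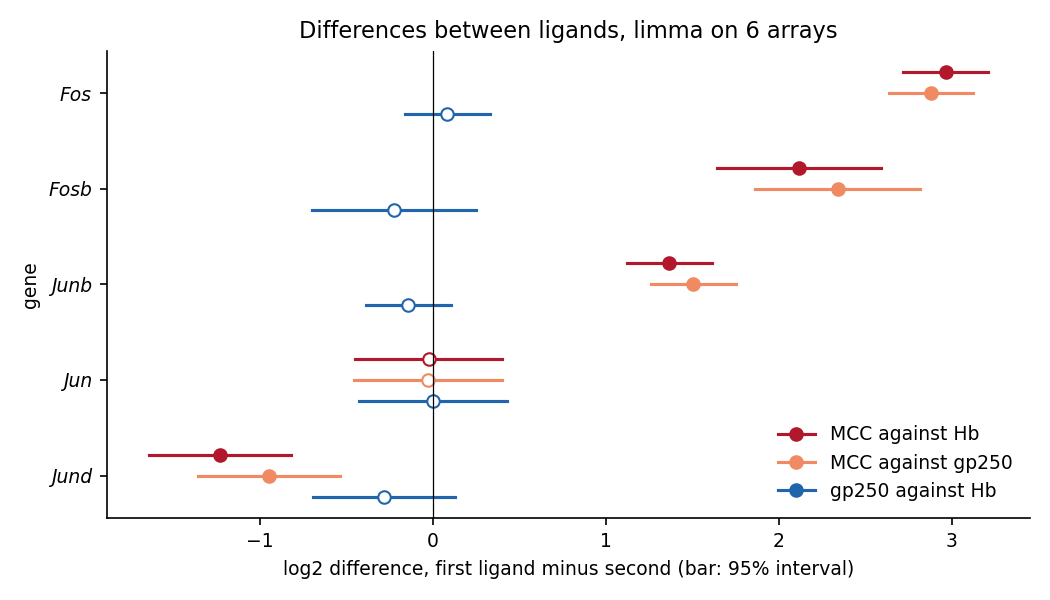
Log2 difference between ligands for the 5 tested Fos and Jun genes, with 95% intervals from limma on 6 arrays. Filled points passed an adjusted p of 0.05. The intervals of Fos, Fosb and Junb lie above 0 and those of Jund below 0 in both comparisons with MCC, and every gp250 against Hb interval crosses 0.

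**Figure D3:**
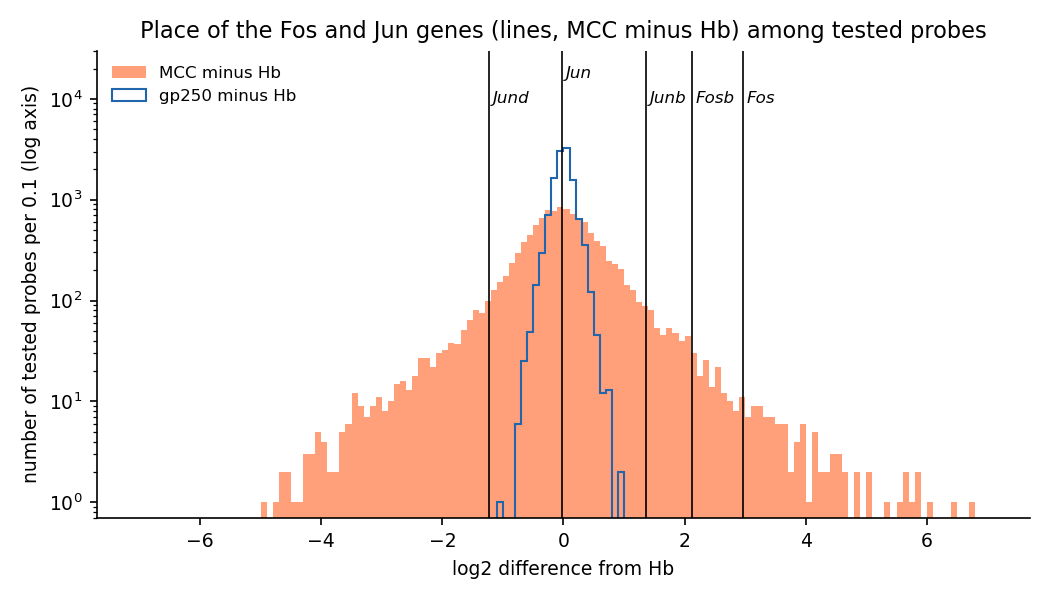
Distribution of log2 differences from Hb over the 11942 tested probes (number of probes per bin on a log axis), for MCC and for gp250. Vertical lines mark the MCC minus Hb difference of each gene: Fos at 2.97, Fosb at 2.12, Junb at 1.37, Jun at -0.02 and Jund at -1.23.

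For each gene called, the genes with the most similar pattern were found as the smallest root mean square log2 difference over the 6 arrays, each probe centred on its own mean, among 8248 genes. For Fos these were Mapk11 (0.067), a p38 kinase whose MCC minus Hb difference was 3.01 ± 0.09, and Zfp52 (0.0715), at 3.07 ± 0.10. For Fosb they were Pus7 (0.0952) and Srgn (0.116), the latter encoding the proteoglycan core protein serglycin, which rose by 2.22 ± 0.11. Pus7 was detected on the MCC arrays alone and was at least 2.82-fold higher there than with Hb. For Junb they were Nt5e (0.0432), which encodes the ectoenzyme CD73, and Ext1 (0.0526), an enzyme of heparan sulfate synthesis, which rose by 1.47 ± 0.09. Nt5e too was detected with MCC alone, at least 1.86-fold higher than with Hb. For Jund they were Enkd1 (0.0874) and Gdpd1 (0.101), which differed by -1.11 ± 0.17. Enkd1 was below background with MCC with a level at least 1.56-fold under that with Hb. The likeness of Pus7, Nt5e and Enkd1 therefore rests in part on values below background.

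The genes that act with AP-1 were read in lists, each gene by its brightest probe. These lists were chosen with earlier results of these data known, so their counts are descriptions and not tests. Over all 8253 genes tested this way, 55.1% were called between MCC and Hb, 26.2% as higher and 28.8% as lower, with a median log2 difference of -0.04. The lists are described by their counts beside these shares, and genes are named by the size of their change. No member of the lists passed the test between gp250 and Hb in limma.

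Of 21 other bZIP factors that can pair or compete with Fos and Jun proteins, 11 were tested: 4 rose and 2 fell with MCC against Hb, and 5 did not pass, with a median log2 difference of 0.14. Crem, a cyclic AMP responsive factor that also has a repressor form, rose by 2.05 ± 0.15, or 4.15-fold. Batf, which pairs with Jun proteins in lymphocytes, was not above background on either Hb array, and with MCC it was at least 2.17-fold higher (adjusted p = 0.000223). Ddit3, the stress factor CHOP, rose by 0.87 ± 0.10, or 1.83-fold. Nfil3 and Bach1, bZIP repressors, fell by 1.10 ± 0.11 and 1.02 ± 0.24 on the log2 scale. Without Hb replicate 1 the list had 1 fall. Against gp250, 5 rose and 2 fell.

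Of 28 kinases, phosphatases and ubiquitin ligases that act on AP-1 proteins or on the kinases above them, 19 were tested: 8 rose, 4 fell and 7 did not pass, with a median of 0.18. Dusp6, a phosphatase that switches off ERK, rose by 1.94 ± 0.09, or 3.84-fold. Dusp4, a nuclear phosphatase of the same kind, was below background with Hb and at least 5.62-fold higher with MCC, and its dimmer probe differed by 1.26. Mapkapk2, a kinase downstream of p38, rose by 1.47 ± 0.13, or 2.76-fold. Map2k6, which activates p38, fell by 1.78 ± 0.08 on the log2 scale, or 3.43-fold. Map2k1, the ERK activator MEK1, was below background with MCC and at least 1.35-fold lower. Mapk9, which encodes the Jun kinase JNK2, fell by 0.43 ± 0.09 on its brightest probe, and its 3 probes ran from -0.43 to 0.23. Mapk8, which encodes JNK1, differed by -0.16 ± 0.09 and did not pass. The 4 falls became 2 without MCC replicate 1, without Hb replicate 2, with median scaling or without the filter on dim probes, and 1 without scaling between arrays. Against gp250, 9 rose and 4 fell.

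Of 14 regulators of Fos and Jun transcription, 11 were tested: 4 rose, 3 fell and 4 did not pass, with a median of -0.09. Srf, the factor that binds CArG boxes, rose by 1.04 ± 0.09. Its ERK-responsive partners Elk4 and Elk3 rose by 1.27 ± 0.27 and 0.90 ± 0.10. Hdac7, a deacetylase that represses MEF2 targets in thymocytes, and Mef2a fell by 1.07 ± 0.11 and 1.02 ± 0.13 on the log2 scale. Ep300, a histone acetyltransferase, fell by 0.63 ± 0.15. Elk4 did not pass between MCC and gp250, where its log2 difference was 0.55 ± 0.27. Against gp250, 4 rose and 3 fell.

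Of 10 genes for NFAT and other DNA-binding partners of AP-1, 8 were tested: 4 rose, 3 fell and 1 did not pass, with a median of 0.43. Of the 4 NFAT genes tested, 1 rose, 2 fell and Nfatc2, at -0.12 ± 0.17 and not detected with MCC, did not pass. Nfatc1 rose by 1.73 ± 0.08, or 3.32-fold, and its 6 probes ran from 1.52 to 4.15. Nfatc3 fell by 2.30 ± 0.20 on the log2 scale, or 4.93-fold, and Nfat5 fell by 1.28 ± 0.10. Irf4 and Irf8, interferon regulatory factors of which IRF4 binds with BATF and Jun proteins, rose by 3.39 ± 0.09 and 1.26 ± 0.18, and each was detected on 1 of the 2 Hb arrays. Ets1 fell by 0.52 ± 0.09 on its brightest probe, and its probes ran from -0.52 to 0.28. Against gp250, 4 rose and 3 fell.

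Of 26 genes known as targets of AP-1 or of NFAT with AP-1, 19 were tested: 14 rose, 1 fell and 4 did not pass, with a median of 1.17. The largest rises were of Xcl1, a chemokine detected on 1 of the 2 Hb arrays, at 6.44 ± 0.22, of Egr2 at 5.78 ± 0.09 and of Cd69 at 4.28 ± 0.11. Vim, the intermediate filament vimentin, fell by 0.57 ± 0.10 on the log2 scale, and did not pass without scaling between arrays. The 4 that did not pass were Bcl2l11 at -0.03, Ccnd1 at 0.01, Il2ra at 0.01 and Plaur at 0.11. The 3 probes of Bcl2l11, a death gene of negative selection, ran from -0.04 to 0.48, and none passed against Hb. Its probe at 0.48 differed by 0.68 between MCC and gp250 (adjusted p = 0.0378). Against gp250, 14 rose and 1 fell.

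Of 25 other immediate-early genes, some of them also in the target list, 19 were tested: 13 rose, 3 fell and 3 did not pass, with a median of 1.17, or 0.84 with genes below background at their bound. Egr1, a zinc finger factor induced through the same SRF route as Fos, rose by 4.51 ± 0.18. Nr4a2, an orphan nuclear receptor, rose by 3.21 ± 0.24, or 9.27-fold. The falls were of Klf2, by 1.96 ± 0.09 on the log2 scale, of Klf6, by 1.51 ± 0.18, and of Btg1, by 0.86 ± 0.09. KLF2 is known as a factor of quiescence and of exit from the thymus, and BTG1 as an inhibitor of proliferation. Against gp250, 14 rose and 3 fell.

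**Figure D4:**
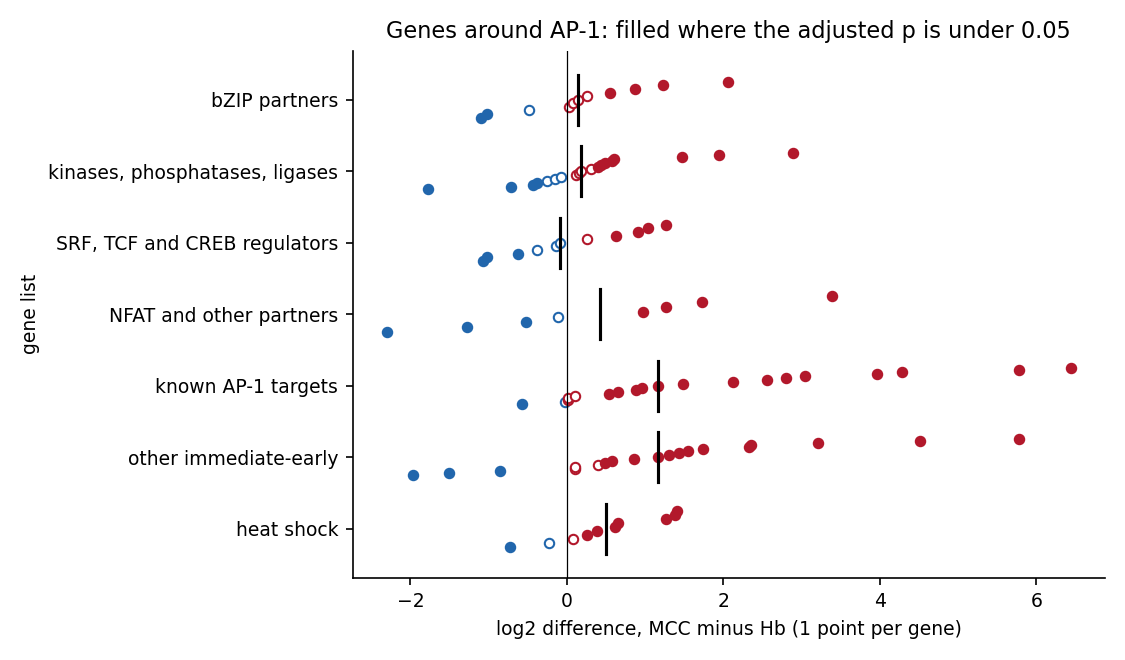
Log2 difference, MCC minus Hb, of each tested gene in the 7 lists around AP-1, 1 point per gene by its brightest probe, filled where the adjusted p was under 0.05. Fitted values are drawn also for genes below background on the Hb or MCC arrays. The known targets and the other immediate-early genes share some genes, Egr2 among them, and have the same median of 1.17 in these fitted values. The median over all genes tested was -0.04.

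Fos and Jun genes are also known to rise when tissue is dissociated or heated, so 12 heat shock genes were read beside them. Of 10 tested, 7 rose with MCC against Hb, 1 fell and 2 did not pass, with a median of 0.50, or 0.39 with genes below background at their bound. Hsph1, Hspd1 and Hspe1 rose by 1.41 ± 0.11, 1.39 ± 0.10 and 1.27 ± 0.17, and Hspa1a, the stress-inducible HSP70 gene, fell by 0.73 ± 0.12 on the log2 scale. The rises were 4 without MCC replicate 1, 3 without MCC replicate 2 and 3 without Hb replicate 1. Against gp250, 5 rose and 1 fell. The part of these genes in the Fos, Fosb and Junb values was not tested.

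Markers of other cell types found in the thymus were mostly below background. The myeloid markers Cd14, Itgam, Itgax and Adgre1 and the natural killer markers Ncr1, Klrb1c, Klrd1 and Gzma were not detected on any array. The class II genes H2-Ab1 and Cd74 were detected on all 6: H2-Ab1 rose by 0.55 ± 0.13 with MCC against Hb (adjusted p = 0.0117), which did not pass without MCC replicate 2 or without Hb replicate 1, and Cd74 differed by -0.47 ± 0.24 without passing. The summed intensity of the myeloid list (10 of 11 with a probe, 2 tested) ran from 614 to 625 on MCC arrays, from 340 to 373 on gp250 arrays and from 372 to 449 on Hb arrays. For the natural killer and innate lymphoid list (9 of 9 with a probe, 4 tested) it was 5623 to 5840, 1306 to 1479 and 1490 to 1565 in the same order. Of its 4 tested genes 2 rose, Gata3 at 1.88 and Nkg7 at 1.18, and 2 fell, Id2 at -1.46 and Il18r1, which was below background with MCC and at least 3.08-fold lower. Gata3 and Id2 are also expressed in thymocytes. For B cells (4 of 6 with a probe, 2 tested) the summed intensity ran from 263 to 265 on MCC arrays, from 1012 to 1140 on gp250 arrays and from 1095 to 1116 on Hb arrays. For erythroid cells (4 of 6 with a probe, 2 tested) it was 2808 to 2897, 3175 to 3845 and 3089 to 3553, and for stromal cells (8 of 9 with a probe, 2 tested) 537 to 549, 1096 to 1322 and 1168 to 1283. Both tested B cell genes (Cd79a, Cd79b), the erythroid Hba-a1 and the endothelial Pecam1 fell with MCC, and the epithelial Krt8 rose by 0.41. These are few of the markers listed. Pax5, Alas2, Epor, Krt5, Foxn1, Pdgfra, Col1a1, Col3a1 and Cdh5 were not detected on any array, and Ms4a1 was detected on 1. Loss of B, erythroid or endothelial cells was therefore not shown. Krt8 and Hba-a1 each lost their call in several fits with an array left out, and so did a B cell gene. Such fits leave 1 array for a ligand. Krt8 also did not pass in the authors' processed table, without the filter on dim probes, with an intensity trend or with the replicate block. Hba-a1 also did not pass with median scaling, without scaling or without that filter. Of the B cell genes, 1 fell without scaling, without the filter, with a stricter detection filter or with an intensity trend. The part of these lists in the Fos and Jun values was not tested.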

How the data were processed

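Total RNA of 6 samples was read on 1-colour Illumina mouse arrays, 2 for each of 3 ligands by the sample titles. Per the file headers, the deposited matrix holds an intensity that is not normalized and, beside it, the detection p-value of every probe. Values below 0 show that the deposited intensity had its background subtracted. The detection p-value moves in steps of 1/798. In the authors' processed table the median ratio to the deposited intensity was 0.825 to 1.13 by array, and that table served as an alternative. For the scanner software, a name was not given in the sources used here.

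Processing was done in R 4.3.3 with neqc of limma 3.58.1, which applies normexp (its control parameters taken from the detection p-values), adds an offset of 16, equalizes quantiles and takes log2. The offset makes folds of dim probes smaller. Probes with a detection p-value under 0.05 on 2 or more arrays were tested. The model had 1 mean per ligand over all 6 arrays (3 residual degrees of freedom) and eBayes without trend. Benjamini-Hochberg adjustment ran over all tested probes of a comparison, with calls at 0.05. Errors are standard errors unless SD is written, and intervals are 95%. For a gene not above background with a ligand, "at least" gives the brighter mean over, per dim array, either the lowest detected signal or the probe's own value, whichever was higher.

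Names came from the platform annotation (23978 probes with 1 symbol; 23962 matched to RefSeq by Entrez number). Every Fos and Jun probe is named. Lists name at most the 3 largest rises and 3 largest falls among genes called between MCC and Hb, and patterns the 2 nearest genes. Mapk8 and the list genes named as not passing were added after their values were seen. Members and lists were chosen with earlier results of these data known. The fit was run on simulated data with normally distributed noise and few changed probes. Most tested probes were called in the comparisons with MCC, so that run does not show how accurate these calls are. Other settings tried were no background correction, a larger offset of 50, median or no scaling, the authors' processed table, other filters on dim probes, an intensity trend, fits of 2 ligands, the replicate block, and leaving out each array.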

Additional observations from a re-analysis of the deposited data

How the results depend on the processing

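The differences of Fos, Fosb, Junb and Jund with MCC kept their direction and stayed called under all 16 alternatives in both comparisons with MCC. Against Hb they ran from 2.75 to 3.26 for Fos, 1.75 to 2.41 for Fosb, 1.30 to 1.67 for Junb and -1.37 to -0.97 for Jund (log2). Differences that turned sign were never called. For Jun these were MCC against Hb, at 0.0146 with median scaling, 0.151 without scaling and -0.234 to 0.185 with an array left out; gp250 against Hb, at -0.000956 with median scaling, -0.0381 without scaling, -0.00133 in the authors' processed table and -0.207 to 0.213 with an array left out; and MCC against gp250, at 0.0156 with median scaling, 0.189 without scaling and -0.189 to 0.134 with an array left out. Fosb between gp250 and Hb ran from -0.508 to 0.0610 with an array left out. The cause was not tested. Probes called between MCC and Hb numbered 5029 to 6994 over the alternatives, against 6545, and 0 between gp250 and Hb throughout. Higher calls were 48.5% of them, 59.0% with median scaling and 69.9% without scaling, which moved the median of all tested probes to 0.22; against gp250 these shares were 48.7%, 59.4% and 72.5%. With the replicate block 6331 probes were called between MCC and Hb and 6474 between MCC and gp250, and it changed no call of a Fos or Jun gene. What arrays of equal number share is not in the labels. Over all tested probes, deviations of same-numbered arrays correlated at 0.0170 (MCC and gp250), -0.00391 (MCC and Hb) and -0.0228 (gp250 and Hb). On the normalized scale Fosb and Jund were higher on replicate 2 than on replicate 1 with every ligand, and Fos, Jun and Junb were not. Of the list counts, 377 stayed within 1.5 times and 39 did not. Averaging a gene's probes was not run, since each Fos and Jun gene had 1 probe. Dim signal limits Jun, Fosb without MCC, and Fosl1.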
